A study of Mus musculus with 15 samples.

Results

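The genes described here encode collagens, laminins, thrombospondins and other glycoproteins of the extracellular matrix, 58 genes of the 14860 that had a row of the value table with exactly 1 gene symbol. They were chosen by symbol, with no measured difference between groups in the rule: 39 collagen chains, 7 laminin chains, and 12 glycoproteins, which are the 4 thrombospondins with Fn1, Postn, Tnc, Sparc, Nid1, Nid2, Hspg2 and Fbn2. The rule takes the row with the highest mean where a gene has several, and each of the 58 had 1 row. Of the 68 RefSeq symbols that fit the rule, 10 had no row of exactly 1 symbol and were not analysed here.

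Mouse primary myoblasts, the precursor cells of skeletal muscle, were grown on collagen-coated plates and differentiated into myotubes, the multinucleate cells that form when myoblasts fuse. Adenovirus was added at 48 h of differentiation, with a ratio of infectious virus to cells (multiplicity of infection) of 100. The 4 test groups received virus for 1 isoform of PGC-1a, a transcriptional coactivator known for mitochondrial and muscle programmes, and are named PGC-1a1, PGC-1a2, PGC-1a3 and PGC-1a4. Their virus also carried GFP under a separate promoter, and the control group received GFP alone, so both adenovirus and GFP were common to all 5 groups. The medium was changed at 12 h, and total RNA was taken about 60 h after transduction and hybridised to exon arrays, with 3 arrays in each group and 15 in all. The labels give no strain, sex or age of the mice and do not say whether replicates came from separate cultures. The p-values therefore measure only the spread among the arrays, which may be technical. For PGC-1a4 a second label field names isoform 1, in conflict with the titles, which were followed. The series title concerns splicing. The deposited value pools a gene's probes into a single log2 signal, so forms of a transcript cannot be told apart here, a limit for fibronectin, tenascin-C and periostin, whose transcripts are known to be alternatively spliced.

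Each muscle fibre is wrapped in a basement membrane, a sheet in which laminin trimers and a collagen IV network are tied together by nidogens and the heparan sulfate proteoglycan perlecan. Outside it, fibrillar collagens and collagen VI form the connective tissue between fibres. Matricellular proteins such as periostin, tenascin-C, the thrombospondins and SPARC bear little load, modulate adhesion and growth factor signals, and are known for their abundance in growing and regenerating muscle.

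Array medians lay between 5.476 and 5.659 log2. Of the 58 genes, 30 were above the array median on all 15 arrays, and Col24a1, which encodes a minor fibrillar collagen, was below the lower quartile on all 15. The introduced gene, Ppargc1a, averaged 12.61 log2 in PGC-1a1, 8.88 in PGC-1a2, 8.94 in PGC-1a3 and 10.46 in PGC-1a4, against 8.53 in GFP, and it passed the test in PGC-1a1 and PGC-1a4 alone. For PGC-1a2 and PGC-1a3 this signal therefore does not show that the isoform was expressed. Whether the probes of this gene cover those 2 isoforms was not examined. One control array, GFP replicate 2, lay far from the others of its group, at 40.9 on the second principal component of all rows against -14.3 and -7.0. It was the highest of the 15 arrays for 31 of the 58 genes, against 4004 of all 23332 rows, and lay a median of 0.38 log2 above the mean of the other GFP arrays over the 58 genes, against -0.04 over all rows. The median within-group SD of the 58 genes was 0.141 log2 for PGC-1a1, 0.08 for PGC-1a2, 0.146 for PGC-1a3 and 0.123 for PGC-1a4, against 0.22 for GFP. The counts of the 58 genes below are therefore also given without that array.

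The labelled cell type was checked on marker genes. All 8 myotube markers measured, among them Ckm, Acta1 and Myog, were above the array median on all 15 arrays. Myog, a transcription factor of differentiation, fell by 0.46 log2 in PGC-1a1, 0.37 in PGC-1a2 and 0.37 in PGC-1a3, and Myod1, a factor of the same family, fell by 0.35 in PGC-1a4. Of 4 satellite cell and myoblast markers, 3 were above the array median on all 15 arrays. Vcam1 rose by 0.88 in PGC-1a1 and 0.41 in PGC-1a4, Myf5 rose by 0.45 in PGC-1a2 and fell by 0.46 in PGC-1a4, and Pax7 fell by 0.26 in PGC-1a2. The summed linear signal of the 4 was 1844 to 1960 in PGC-1a1, 2250 to 2437 in PGC-1a2, 1651 to 1766 in PGC-1a3 and 1697 to 1753 in PGC-1a4, against 1849 to 2085 in GFP. Of 10 fibroblast markers, S100a4 and Tcf7l2 were above the array median on all arrays, while Fap and Dpt were below the lower quartile on all 15, and Pdgfra averaged 3.79 log2. The summed linear signal of the 10 was 536 to 581 on PGC-1a1 arrays, 734 to 759 on PGC-1a2, 773 to 808 on PGC-1a3 and 561 to 631 on PGC-1a4, against 740 to 813 on GFP arrays. S100a4 fell by 0.98 log2 in PGC-1a1 and by 0.77 in PGC-1a4, and Tcf7l2 rose by 0.35 in PGC-1a2, 0.47 in PGC-1a3 and 0.25 in PGC-1a4. None of 7 endothelial and none of 5 macrophage markers was above the array median on all arrays, and 1 of 6 adipocyte markers was. Of these, Tek fell by 0.39 in PGC-1a4, Cd68 rose by 0.59 in PGC-1a3, and the adipocyte marker Pparg fell by 0.28 in PGC-1a1, 0.34 in PGC-1a3 and 0.64 in PGC-1a4. Of 6 markers of smooth muscle and pericytes, 2 were above the array median on all 15 arrays. Rgs5 fell by 0.28 in PGC-1a2 and 0.58 in PGC-1a3 and rose by 0.25 in PGC-1a1, while Mcam fell by 0.43 in PGC-1a3 and rose by 0.26 in PGC-1a4, and Acta2 fell by 0.21 in PGC-1a4. The summed signal of the 6 markers was 5824 to 5878 in PGC-1a1, 6021 to 6183 in PGC-1a2, 6051 to 6380 in PGC-1a3 and 5234 to 5567 in PGC-1a4, against 5967 to 6080 in GFP. The part of these cells in the results was not tested. In a bulk sample, fewer cells of a type and less RNA per cell cannot be told apart.

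Differences are given as the log2 mean of the first group minus that of the second, with the SE of the limma fit over all 15 arrays (n = 3 per group). A gene passed the test, and is said to have risen or fallen, at an adjusted p under 0.05 after Benjamini-Hochberg adjustment over all 23332 rows. With 3 arrays a side, the smallest p that an exact permutation test allows is 0.1, so each of these calls rests on the pooled variance of the fit. Of the 58 genes, 20 (34.5%) passed in at least 1 comparison with GFP, against 24.9% of all rows. In at least 1 of the 10 comparisons between groups, 23 passed (39.7%), close to the 38.9% of all rows, and 35 passed in none. The F-test over the 5 groups called 21 of the 58 (36.2%), against 31.3% of all rows, and 22 without GFP replicate 2. Over all rows it called 7295 with all arrays and 7885 without that array. All 37 calls against GFP were of groups that did not overlap. Groups without a call could also lie apart: 12, 16, 14 and 10 of the 58 genes did not overlap in PGC-1a1 to PGC-1a4 against GFP, with 4, 12, 12 and 9 called. The share over all rows is not given, so a lack of overlap is not read as support.

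**Figure D1:**
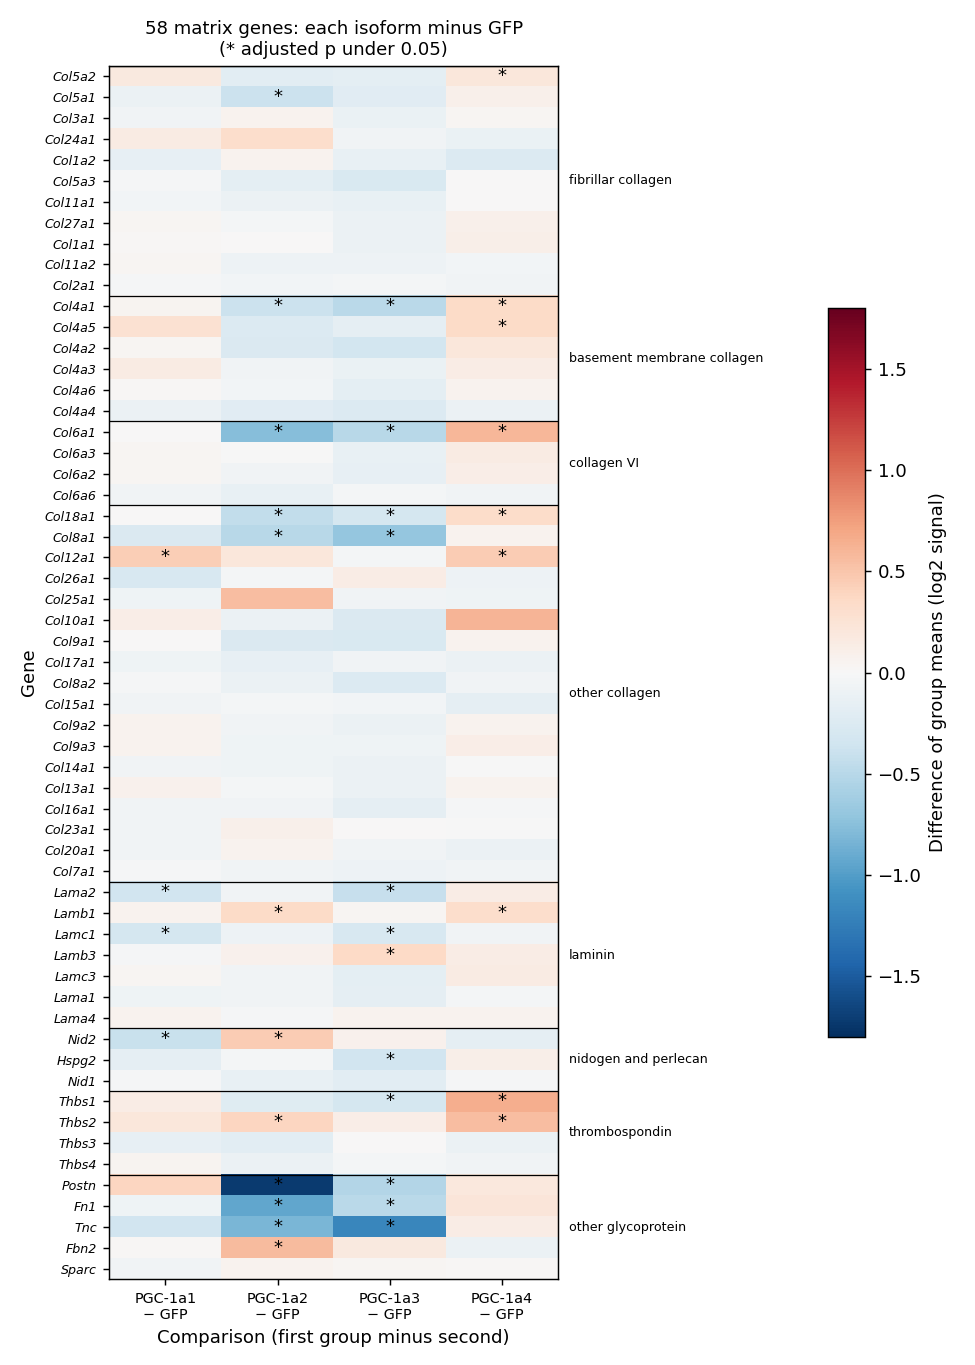
The heatmap shows the difference of each isoform from GFP (columns, log2 signal of the isoform minus GFP) for the 58 genes (rows), ordered by family, with red for higher and blue for lower and a star where the adjusted p was under 0.05. Postn in PGC-1a2, at -1.72, is the darkest cell, and the stars lie on a few genes of each family while most collagens carry none.

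In PGC-1a1 cultures 3 genes of the basement membrane fell, Nid2 (nidogen-2), Lamc1 (laminin gamma-1 chain) and Lama2 (laminin alpha-2 chain), and Col12a1, which encodes a collagen that sits on the surface of fibrils, rose. These 4 calls are 6.9% of the 58 genes, close to the 6.84% called among all rows, with 2.4% of rows called lower and 4.44% called higher. The median difference of the 58 genes was -0.02 log2, against -0.03 over all rows. The count was 2 without GFP replicate 3 or without PGC-1a1 replicate 1, 1 without PGC-1a1 replicate 3 and 4 without GFP replicate 2. Over all rows the calls numbered 1596 with all arrays and 1103, 1052, 957 and 1490 in these runs, in that order. Quantile normalization gave 2 higher and 3 lower, and median centring 2 higher and 1 lower.

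In PGC-1a2 cultures 8 genes fell and 4 rose. Those that fell were the glycoprotein genes Postn, Fn1 and Tnc and the collagen genes Col6a1, Col8a1, Col18a1, Col4a1 and Col5a1, and those that rose were Fbn2, Nid2, Thbs2 and Lamb1. The 12 calls are 20.7% of the 58 genes, against 9.33% of all rows called, 4.77% lower and 4.56% higher. The median difference was -0.07 log2, against -0.03 over all rows. Without GFP replicate 2 the count was 11, and the calls over all rows numbered 2122, against 2177 with all arrays.

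In PGC-1a3 cultures 11 genes fell, and Lamb3, which encodes the laminin beta-3 chain, rose. Tnc fell most, followed by Col8a1, Postn, Col6a1, Fn1, Col4a1, Lama2, Hspg2, Thbs1, Col18a1 and Lamc1. The 12 calls are 20.7% of the 58 genes, against 7.99% of all rows, 2.97% lower and 5.02% higher. The median difference was -0.13 log2, against -0.02 over all rows. Of the 58 differences, 48 were below 0, against 33 in PGC-1a1, 45 in PGC-1a2 and 24 in PGC-1a4. The share of all rows below 0 is not given. GFP replicate 2, a median of 0.38 log2 above the mean of the other GFP arrays over these genes, enters all of these differences. The medians and the counts below 0 were not computed without it. The count of calls was 10 without GFP replicate 2, 6 without PGC-1a3 replicate 1 and 5 without PGC-1a3 replicate 2, and it was 7 with median centring. Over all rows the calls fell as well, from 1865 in the main fit to 1512, 865, 928 and 1127 in these runs, in that order.

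In PGC-1a4 cultures 9 genes rose and none fell. They were Thbs1, Thbs2, Col6a1, Col12a1, Col4a1, Col4a5, Col18a1, Lamb1 and Col5a2. The 9 calls are 15.5% of the 58 genes, against 14.3% of all rows called, 7.05% higher and 7.22% lower. At an unadjusted p under 0.05 the test gave 10 of the 58, against 9 in PGC-1a1, 16 in PGC-1a2 and 15 in PGC-1a3. The share of all rows at that threshold is not given. The median difference was 0.06 log2, against -0.02 over all rows. The 9 higher and 0 lower calls became 8 and 0 with median centring, and without GFP replicate 2 the count was 8. Over all rows the calls numbered 3331 in the main fit, 2479 with median centring and 3349 without GFP replicate 2.

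Matricellular and adhesive glycoproteins had the largest differences from GFP in PGC-1a2 (Postn) and PGC-1a3 (Tnc). Postn encodes periostin, a secreted protein that binds integrins and collagen and takes part in collagen crosslinking. Its signal was 8.98, 8.89 and 8.88 log2 on the PGC-1a1 arrays, 6.56, 6.85 and 6.99 on PGC-1a2, 8.13, 7.99 and 7.87 on PGC-1a3 and 8.79, 8.59 and 8.76 on PGC-1a4, against 8.71, 8.32 and 8.53 on GFP arrays. The 3 PGC-1a2 arrays lay below every other array, and the PGC-1a3 arrays lay below all GFP arrays. Postn fell by 1.72 ± 0.12 log2 in PGC-1a2 (SE, adjusted p = 2.1e-05), to 30.4% of the GFP level, and by 0.53 ± 0.12 in PGC-1a3 (adjusted p = 0.022). Its differences in PGC-1a1 and PGC-1a4 did not pass. The PGC-1a3 call did not hold without GFP replicate 1 (adjusted p = 0.07), GFP replicate 3 (0.064), PGC-1a3 replicate 2 (0.072) or PGC-1a3 replicate 3 (0.069), and with median centring (0.065).

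Fn1 encodes fibronectin, which links collagen and other matrix proteins to integrins at the cell surface. It had 10.17, 10.10 and 10.13 log2 in PGC-1a1, 8.99, 9.40 and 9.43 in PGC-1a2, 9.80, 9.66 and 9.73 in PGC-1a3 and 10.40, 10.33 and 10.57 in PGC-1a4, against 10.25, 10.19 and 10.21 in GFP. All PGC-1a2 and PGC-1a3 arrays were below all GFP arrays. Fn1 fell by 0.94 ± 0.11 in PGC-1a2 (adjusted p = 3e-04), to 52.1% of GFP, and by 0.49 ± 0.11 in PGC-1a3 (adjusted p = 0.015), where the call was lost without PGC-1a3 replicate 2 (adjusted p = 0.064). All 3 PGC-1a4 arrays lay above the GFP arrays, but the difference of 0.22 did not pass.

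Tnc encodes tenascin-C, a large hexameric protein that modulates adhesion and is known for its presence at the muscle-tendon junction. It had 8.63, 8.48 and 8.52 log2 in PGC-1a1, 7.81, 8.16 and 8.23 in PGC-1a2, 7.77, 7.72 and 7.69 in PGC-1a3 and 8.87, 8.82 and 9.41 in PGC-1a4, against 8.96, 8.78 and 8.92 in GFP. The PGC-1a2 and PGC-1a3 arrays were all below the GFP arrays, and those of PGC-1a4 overlapped them. Tnc fell by 0.82 ± 0.15 in PGC-1a2 (adjusted p = 0.0043), to 56.6% of GFP, and by 1.17 ± 0.15 in PGC-1a3 (adjusted p = 0.00099), to 44.6%. These calls, like those of Postn and Fn1 in PGC-1a2, were kept whichever single array was left out.

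Sparc encodes SPARC, a collagen-binding protein that takes part in collagen deposition, and did not pass in any comparison. Its group means were 11.28 log2 in PGC-1a1, 11.41 in PGC-1a2, 11.36 in PGC-1a3 and 11.36 in PGC-1a4, against 11.33 in GFP. Fbn2 encodes fibrillin-2, a microfibril protein known for its expression in development. It had 4.63, 4.83 and 4.80 log2 in PGC-1a1, 5.39, 5.30 and 5.23 in PGC-1a2, 4.87, 4.89 and 5.00 in PGC-1a3 and 4.51, 4.72 and 4.67 in PGC-1a4, against 4.70, 4.88 and 4.62 in GFP. Every PGC-1a2 array was above every other array, and Fbn2 rose by 0.57 ± 0.09 in PGC-1a2 (adjusted p = 0.0018).

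The thrombospondins bind integrins, CD36 and latent TGF-beta, and THBS1 is known as an activator of TGF-beta. Thbs1 had 11.22, 11.12 and 11.21 log2 in PGC-1a1, 10.73, 10.89 and 10.88 in PGC-1a2, 10.76, 10.74 and 10.71 in PGC-1a3 and 11.60, 11.66 and 11.85 in PGC-1a4, against 11.18, 11.01 and 10.98 in GFP. The 3 PGC-1a4 arrays were the highest of the 15, and the PGC-1a2 and PGC-1a3 arrays were all below the GFP arrays. Thbs1 rose by 0.65 ± 0.08 in PGC-1a4 (adjusted p = 2e-04), which is 1.56-fold, and fell by 0.32 ± 0.08 in PGC-1a3 (adjusted p = 0.031). The fall no longer passed without GFP replicate 1 (adjusted p = 0.095), without PGC-1a3 replicate 1 (0.083), 2 (0.089) or 3 (0.074), and with median centring (0.091).

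Thbs2, whose product is known from mice as a regulator of collagen fibril assembly, had 7.74, 7.57 and 7.68 log2 in PGC-1a1, 8.05, 7.79 and 7.68 in PGC-1a2, 7.59, 7.60 and 7.51 in PGC-1a3 and 7.98, 7.91 and 8.13 in PGC-1a4, against 7.46, 7.32 and 7.56 in GFP. All PGC-1a2 and PGC-1a4 arrays were above all GFP arrays. Thbs2 rose by 0.56 ± 0.10 in PGC-1a4 (adjusted p = 0.0024) and by 0.39 ± 0.10 in PGC-1a2 (adjusted p = 0.027). The PGC-1a2 call did not hold without GFP replicate 1 (adjusted p = 0.061), GFP replicate 2 (0.084), PGC-1a2 replicate 1 (0.092) or PGC-1a2 replicate 2 (0.063), and with median centring (0.059). Thbs3 and Thbs4, which encode pentameric thrombospondins, passed in no comparison.

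**Figure D2:**
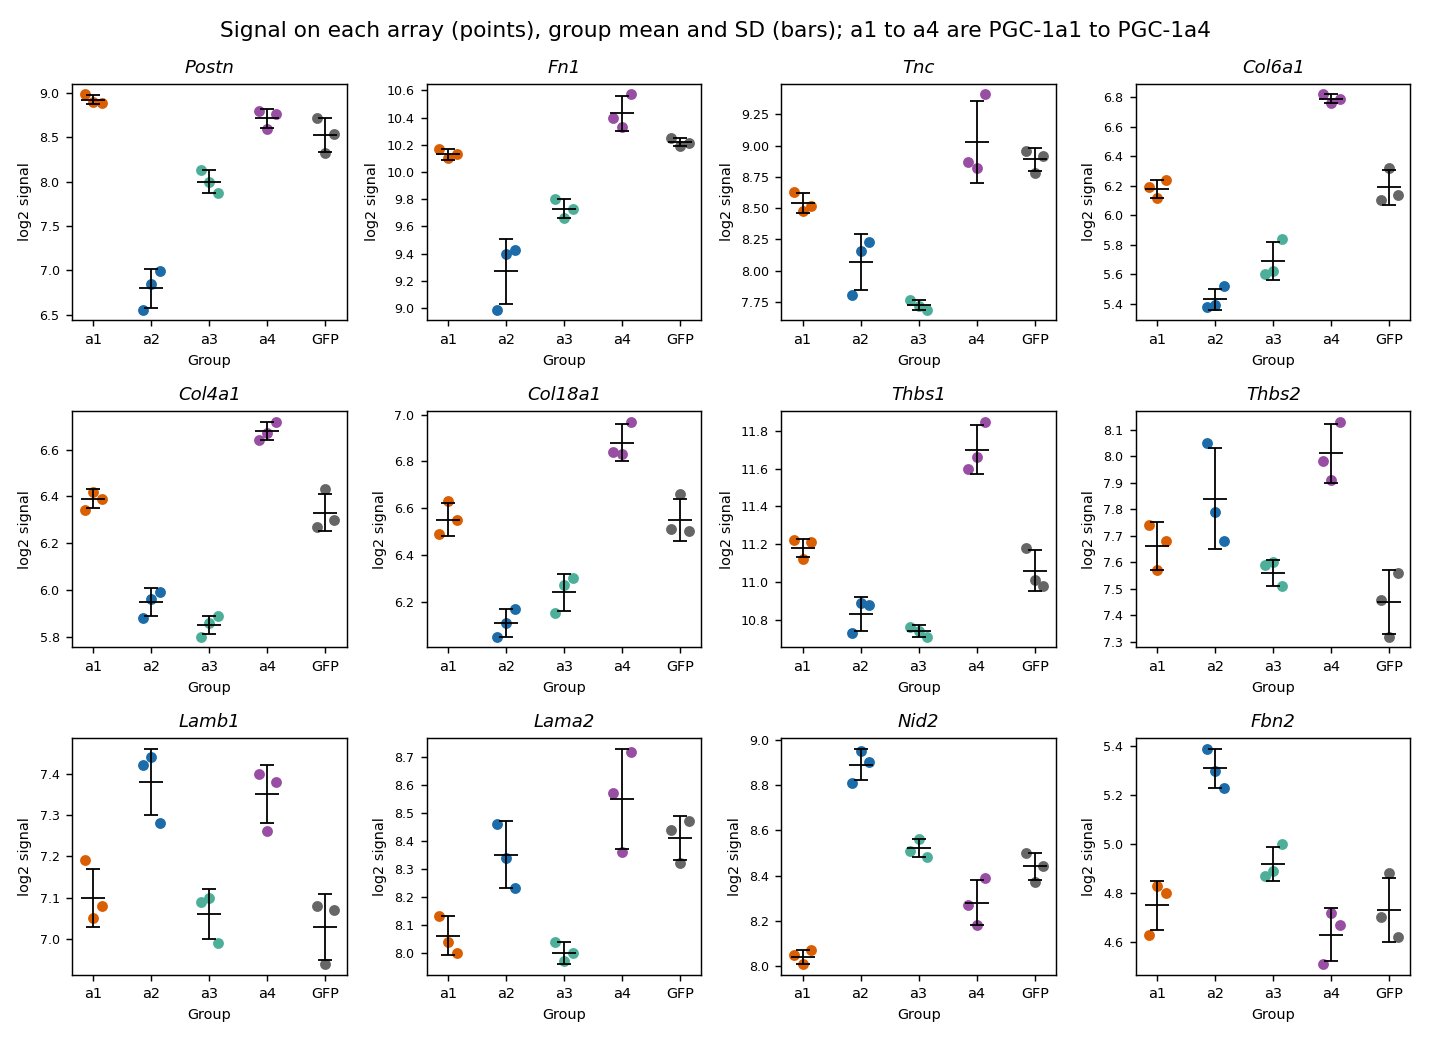
Each panel plots the log2 signal of 1 gene on all 15 arrays (points) with group means and SD (bars), for PGC-1a1 to PGC-1a4 from left to right and then GFP, on a separate axis that does not start at 0. Postn, Fn1, Tnc, Col6a1, Col4a1 and Col18a1 had their lowest values in PGC-1a2 or PGC-1a3 arrays, Thbs1 its highest in PGC-1a4 arrays, and Nid2 its lowest in PGC-1a1 arrays and its highest in PGC-1a2 arrays.

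The basement membrane genes differed in direction among themselves. Col4a1 encodes the alpha-1 chain of collagen IV, which assembles with the alpha-2 chain into the most widespread collagen IV trimer. Col4a1 had 6.34, 6.42 and 6.39 log2 in PGC-1a1, 5.88, 5.96 and 5.99 in PGC-1a2, 5.80, 5.86 and 5.89 in PGC-1a3 and 6.64, 6.67 and 6.72 in PGC-1a4, against 6.27, 6.43 and 6.30 in GFP. The PGC-1a2 and PGC-1a3 arrays were all below, and the PGC-1a4 arrays all above, every GFP array. It fell by 0.38 ± 0.06 in PGC-1a2 (adjusted p = 0.0021) and by 0.48 ± 0.06 in PGC-1a3 (adjusted p = 0.001), and rose by 0.35 ± 0.06 in PGC-1a4 (adjusted p = 0.0021), and all 3 calls were kept whichever array was left out.

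Col4a2, the partner chain, passed in no comparison with GFP. It had 5.98, 6.24 and 6.27 log2 in PGC-1a1, 5.81, 5.82 and 6.02 in PGC-1a2, 5.64, 5.79 and 6.0 in PGC-1a3 and 6.20, 6.40 and 6.41 in PGC-1a4, against 5.97, 6.45 and 5.99 in GFP. GFP replicate 2 was the highest of the 15 arrays for this gene, and the groups of each comparison with GFP overlapped. Col4a5, which encodes a chain of another collagen IV trimer, had 5.24, 5.37 and 5.35 log2 in PGC-1a1, 4.86, 4.75 and 4.73 in PGC-1a2, 4.86, 4.81 and 4.98 in PGC-1a3 and 5.31, 5.36 and 5.48 in PGC-1a4, against 4.95, 5.16 and 4.99 in GFP. It rose by 0.35 ± 0.08 in PGC-1a4 (adjusted p = 0.011), which no longer passed without PGC-1a4 replicate 3 (adjusted p = 0.051). In PGC-1a1 all Col4a5 arrays were above the GFP arrays and the difference of 0.28 did not pass, but it passed without GFP replicate 2 (adjusted p = 0.025), without PGC-1a3 replicate 3 (0.049) and with quantile normalization (0.0015). In PGC-1a2 all Col4a5 arrays were below the GFP arrays, and the difference of -0.25 did not pass, but passed with quantile normalization (adjusted p = 0.025), with the filter on low values (0.047) and with array weights (0.04). Col4a3, Col4a4 and Col4a6 passed in no comparison.

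Col4a1 and Col4a2 lie head to head on opposite strands, which is why their promoter windows are shown. Both come from the RefSeq table for GRCm38.p6, each from 250 bases before to 50 bases after the annotated start, written 5′ to 3′ on the gene's own strand. The Col4a1 window is chr8:11312777-11313076 on the minus strand and the Col4a2 window is chr8:11312555-11312854 on the plus strand. They share 78 bases, and the starts are 21 bases apart. Each start lies downstream of the other on its own strand, so the annotated 5′ ends overlap and leave no gap. Capitals mark matches to a GC box (GGGCGG) or a CCAAT box (CCAAT), searched on both strands.
Col4a1: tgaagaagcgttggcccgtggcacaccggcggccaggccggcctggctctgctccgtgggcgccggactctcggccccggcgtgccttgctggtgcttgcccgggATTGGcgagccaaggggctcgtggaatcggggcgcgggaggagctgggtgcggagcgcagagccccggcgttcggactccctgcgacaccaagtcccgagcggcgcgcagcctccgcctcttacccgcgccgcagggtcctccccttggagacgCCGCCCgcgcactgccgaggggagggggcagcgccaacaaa
Col4a2: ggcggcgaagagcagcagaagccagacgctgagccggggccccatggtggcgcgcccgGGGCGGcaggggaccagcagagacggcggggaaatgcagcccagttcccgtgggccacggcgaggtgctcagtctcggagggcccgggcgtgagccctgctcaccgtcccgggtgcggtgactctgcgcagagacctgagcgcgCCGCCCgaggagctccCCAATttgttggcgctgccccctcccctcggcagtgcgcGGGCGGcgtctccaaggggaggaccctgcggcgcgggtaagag
The Col4a1 window held 1 GC box and 1 CCAAT box and the Col4a2 window 3 GC boxes and 1 CCAAT box. The GC box of the Col4a1 window lies in the shared stretch, downstream of both starts, and is also 1 of the 3 of Col4a2. Among all 32851 windows of the table, 35.7% held a GC box and 37.4% a CCAAT box. Of the 58 genes, 42 had a window, 48 windows in all, of which 60.4% held a GC box and 35.4% a CCAAT box. A match is a run of letters and not a measured site.

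The laminin chains assemble as trimers of an alpha, a beta and a gamma chain, and laminin-211, the main form of adult muscle, holds the chains of Lama2, Lamb1 and Lamc1. Lama2, whose loss causes a congenital muscular dystrophy, had 8.13, 8.04 and 8.0 log2 in PGC-1a1, 8.46, 8.34 and 8.23 in PGC-1a2, 8.04, 7.97 and 8.0 in PGC-1a3 and 8.57, 8.36 and 8.72 in PGC-1a4, against 8.44, 8.32 and 8.47 in GFP. All PGC-1a1 and PGC-1a3 arrays were below the GFP arrays, and the other groups overlapped them. Lama2 fell by 0.35 ± 0.09 in PGC-1a1 (adjusted p = 0.04) and by 0.41 ± 0.09 in PGC-1a3 (adjusted p = 0.019). Leaving out any of 10 arrays ended the PGC-1a1 call (adjusted p 0.052 to 0.13), as did median centring (0.19). These were GFP replicates 1 and 3, all PGC-1a1 and PGC-1a3 replicates, PGC-1a2 replicate 2 and PGC-1a4 replicate 1. The PGC-1a3 call ended without GFP replicate 1 (0.052), GFP replicate 3 (0.067), PGC-1a3 replicate 1 (0.054) or PGC-1a3 replicate 2 (0.073), and with median centring (0.067).

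Lamc1, the gamma chain of most laminins, had 8.28, 8.25 and 8.19 log2 in PGC-1a1, 8.43, 8.50 and 8.46 in PGC-1a2, 8.26, 8.28 and 8.22 in PGC-1a3 and 8.56, 8.35 and 8.52 in PGC-1a4, against 8.59, 8.49 and 8.57 in GFP. The PGC-1a1 and PGC-1a3 arrays were all below the GFP arrays. Lamc1 fell by 0.31 ± 0.06 in PGC-1a1 (adjusted p = 0.011) and by 0.29 ± 0.06 in PGC-1a3 (adjusted p = 0.016). The PGC-1a1 call was lost without PGC-1a1 replicate 3 (adjusted p = 0.056) and with median centring (0.14), and the PGC-1a3 call without GFP replicate 3 (0.055), without PGC-1a3 replicate 1 (0.057) and with median centring (0.096).

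Lamb1, the beta chain of the same trimer, moved in other groups. It had 7.19, 7.05 and 7.08 log2 in PGC-1a1, 7.42, 7.44 and 7.28 in PGC-1a2, 7.09, 7.10 and 6.99 in PGC-1a3 and 7.40, 7.26 and 7.38 in PGC-1a4, against 7.08, 6.94 and 7.07 in GFP. All PGC-1a2 and PGC-1a4 arrays were above all GFP arrays. Lamb1 rose by 0.35 ± 0.07 in PGC-1a2 (adjusted p = 0.0092) and by 0.32 ± 0.07 in PGC-1a4 (adjusted p = 0.0095), with both calls kept whichever array was left out. Lamb3, a chain of epithelial laminin-332, had 7.45, 7.39 and 7.29 log2 in PGC-1a3, against 7.04, 6.92 and 7.09 in GFP, with no overlap, and rose by 0.36 ± 0.08 (adjusted p = 0.018). It did not hold without GFP replicate 2 (adjusted p = 0.057), PGC-1a3 replicate 1 (0.084) or PGC-1a3 replicate 2 (0.065). Lama1, Lama4 and Lamc3 passed in no comparison.

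Nidogens bridge the laminin and collagen IV networks. Nid2 had 8.05, 8.01 and 8.07 log2 in PGC-1a1, 8.81, 8.95 and 8.90 in PGC-1a2, 8.51, 8.56 and 8.48 in PGC-1a3 and 8.27, 8.18 and 8.39 in PGC-1a4, against 8.50, 8.37 and 8.44 in GFP. Every PGC-1a1 array was below, and every PGC-1a2 array above, all arrays of the other groups. Nid2 fell by 0.40 ± 0.07 in PGC-1a1 (adjusted p = 0.0031) and rose by 0.45 ± 0.07 in PGC-1a2 (adjusted p = 0.0015), and both calls were kept whichever array was left out. Nid1 averaged 4.44 log2 in PGC-1a1, 4.33 in PGC-1a2, 4.28 in PGC-1a3 and 4.45 in PGC-1a4, against 4.46 in GFP, and passed in no comparison.

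Hspg2, which encodes perlecan, had 8.92, 8.82 and 8.89 log2 in PGC-1a3, against 9.18, 9.20 and 9.27 in GFP, with no overlap, and fell by 0.34 ± 0.08 (adjusted p = 0.024). The call did not hold without GFP replicate 3 (adjusted p = 0.083), PGC-1a3 replicate 1 (0.059) or PGC-1a3 replicate 2 (0.095), and with median centring (0.065). Col18a1 encodes collagen XVIII, a basement membrane collagen whose end fragment is endostatin. It had 6.49, 6.63 and 6.55 log2 in PGC-1a1, 6.05, 6.11 and 6.17 in PGC-1a2, 6.15, 6.27 and 6.30 in PGC-1a3 and 6.84, 6.83 and 6.97 in PGC-1a4, against 6.51, 6.66 and 6.50 in GFP. The PGC-1a2 and PGC-1a3 arrays lay below, and the PGC-1a4 arrays above, all GFP arrays. Col18a1 fell by 0.44 ± 0.07 in PGC-1a2 (adjusted p = 0.0025) and by 0.31 ± 0.07 in PGC-1a3 (adjusted p = 0.018), and rose by 0.33 ± 0.07 in PGC-1a4 (adjusted p = 0.0081). The PGC-1a3 call did not hold without GFP replicate 2 (adjusted p = 0.056), PGC-1a3 replicate 1 (0.088) or PGC-1a3 replicate 2 (0.052).

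Collagen VI forms beaded microfilaments next to the basement membrane and is built from the chains of Col6a1, Col6a2 and 1 further gene such as Col6a3. Col6a1 had 6.19, 6.12 and 6.24 log2 in PGC-1a1, 5.38, 5.39 and 5.52 in PGC-1a2, 5.60, 5.62 and 5.84 in PGC-1a3 and 6.82, 6.76 and 6.79 in PGC-1a4, against 6.10, 6.32 and 6.14 in GFP. The PGC-1a2 and PGC-1a3 arrays were below, and the PGC-1a4 arrays above, every GFP array. Col6a1 fell by 0.76 ± 0.08 in PGC-1a2 (adjusted p = 0.00025), to 59.2% of GFP, and by 0.50 ± 0.08 in PGC-1a3 (adjusted p = 0.0038), and rose by 0.60 ± 0.08 in PGC-1a4 (adjusted p = 0.00036), to 152% of GFP. All 3 calls were kept whichever array was left out. Col6a2, Col6a3 and Col6a6 passed in no comparison, and their differences from GFP had sizes of at most 0.15 log2.

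Postn, Tnc and Col6a1 each fell in both PGC-1a2 and PGC-1a3, against the same GFP arrays, and 1 promoter window of each is shown with the matches found in it. They come from the same RefSeq table and are written as above. The Postn window is chr3:54360857-54361156 on the plus strand, the Tnc window chr4:64046887-64047186 on the minus strand and the Col6a1 window chr10:76725995-76726294 on the minus strand. For Postn and Tnc, which have 2 windows each in the table, the second is shown. Capitals mark a TATA box (TATAAA), a GC box, or an AP-1 site (TGANTCA, which reads the same on both strands).
Postn: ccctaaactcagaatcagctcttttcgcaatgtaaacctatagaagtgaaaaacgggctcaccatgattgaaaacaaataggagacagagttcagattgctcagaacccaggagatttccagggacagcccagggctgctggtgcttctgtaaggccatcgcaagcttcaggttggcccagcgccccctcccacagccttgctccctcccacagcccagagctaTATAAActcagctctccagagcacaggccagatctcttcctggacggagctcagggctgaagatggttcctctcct
Tnc: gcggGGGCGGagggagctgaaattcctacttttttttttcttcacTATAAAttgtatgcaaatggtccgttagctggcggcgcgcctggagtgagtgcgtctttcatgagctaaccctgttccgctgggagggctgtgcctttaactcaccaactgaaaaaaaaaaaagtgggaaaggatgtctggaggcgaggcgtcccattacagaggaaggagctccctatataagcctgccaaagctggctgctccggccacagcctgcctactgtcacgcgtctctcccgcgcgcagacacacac
Col6a1: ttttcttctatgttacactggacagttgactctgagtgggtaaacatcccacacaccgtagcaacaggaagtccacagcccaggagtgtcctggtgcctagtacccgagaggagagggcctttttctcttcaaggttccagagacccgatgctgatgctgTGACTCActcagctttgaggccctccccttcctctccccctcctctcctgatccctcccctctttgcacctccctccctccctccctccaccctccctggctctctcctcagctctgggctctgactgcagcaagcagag
Counted from the start, the Postn window held a TATAAA match at -26, the Tnc window a TATAAA match at -205 and a GC box at -246, and the Col6a1 window an AP-1 site at -90. Only exact matches to TATAAA were searched. The Tnc window also holds the run tatataag, closer to its start, which is not such a match and is not marked. A TATA box was found in 18.8% of the 48 windows of these matrix genes and in 13.6% of all windows, and an AP-1 site in 2.08% and 7.81%. The 7-letter element AAGGTCA, bound by ERR nuclear receptors, and the CATTCC core bound by TEAD factors were in none of the 5 windows printed. They were in 10.4% and 16.7% of the 48 windows, against 4.72% and 14.7% of all windows. None of the motifs overlapped another in these 5 windows.

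The fibrillar collagens bear the tensile load of connective tissue. Of 11 members of this class, 1 (9.09%) passed in PGC-1a2, against 9.33% of all rows, and 1 in PGC-1a4, against 14.3% of all rows. Neither share was above that of all rows. Both genes encode chains of collagen V, which sits inside collagen I fibrils and sets their diameter, and they moved in opposite directions. Col5a1 had 7.05, 7.04 and 7.16 log2 in PGC-1a2, against 7.31, 7.64 and 7.43 in GFP, with no overlap. It fell by 0.38 ± 0.09 (adjusted p = 0.027). It no longer passed without GFP replicate 2 (adjusted p = 0.076), GFP replicate 3 (0.065), PGC-1a2 replicate 1 (0.076) or PGC-1a2 replicate 2 (0.097), and with quantile normalization (0.065). Col5a2 had 7.61, 7.61 and 7.77 log2 in PGC-1a4, against 7.5, 7.44 and 7.44 in GFP, also with no overlap. It rose by 0.20 ± 0.06 (adjusted p = 0.048), and leaving out any 1 of 14 of the 15 arrays, all but PGC-1a2 replicate 1, ended the call (adjusted p 0.054 to 0.18), as did median centring (0.052) and the replicate block (0.069).

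Col1a1 and Col1a2, which encode the chains of collagen I, and Col3a1, which encodes collagen III, passed in no comparison. Col1a1 had 5.80, 6.09 and 6.11 log2 in PGC-1a1, 6.03, 5.94 and 5.95 in PGC-1a2, 5.64, 5.78 and 6.20 in PGC-1a3 and 6.0, 6.20 and 6.03 in PGC-1a4, against 5.80, 6.44 and 5.69 in GFP. All groups overlapped the GFP arrays, whose replicate 2 was the highest of the 15. Col1a2 had 5.97, 6.26 and 6.25 log2 in PGC-1a1, 6.40, 6.35 and 6.36 in PGC-1a2, 6.0, 6.09 and 6.44 in PGC-1a3 and 5.93, 6.18 and 6.11 in PGC-1a4, against 6.15, 6.60 and 6.19 in GFP. Here too GFP replicate 2 was the highest array. Col3a1 averaged 7.36 log2 in PGC-1a1, 7.49 in PGC-1a2, 7.31 in PGC-1a3 and 7.47 in PGC-1a4, against 7.43 in GFP, with an SD of 0.03 among the GFP arrays. The largest difference from GFP without a call among the 11 was 0.31 log2 in size.

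Of the other 18 collagens, Col18a1 is described above, and 2 more passed in a comparison with GFP. Col8a1 encodes a short-chain collagen known from vessel walls. It had 5.07, 5.22 and 5.48 log2 in PGC-1a1, 5.00, 5.05 and 4.99 in PGC-1a2, 4.65, 4.76 and 5.03 in PGC-1a3 and 5.36, 5.66 and 5.69 in PGC-1a4, against 5.52, 5.42 and 5.59 in GFP. All PGC-1a2 and PGC-1a3 arrays were below all GFP arrays. Col8a1 fell by 0.50 ± 0.12 in PGC-1a2 (adjusted p = 0.027) and by 0.69 ± 0.12 in PGC-1a3 (adjusted p = 0.0061). The first of these calls did not hold without GFP replicate 1 (adjusted p = 0.068), GFP replicate 3 (0.094) or PGC-1a2 replicate 1 (0.07), 2 (0.067) or 3 (0.085).

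Col12a1 encodes collagen XII, known in human patients for a myopathy when mutated. It had 6.79, 6.65 and 6.75 log2 in PGC-1a1, 6.44, 6.53 and 6.50 in PGC-1a2, 6.39, 6.20 and 6.20 in PGC-1a3 and 6.81, 6.55 and 6.86 in PGC-1a4, against 6.49, 6.14 and 6.25 in GFP. All PGC-1a1 and PGC-1a4 arrays were above all GFP arrays. Col12a1 rose by 0.44 ± 0.10 in PGC-1a1 (adjusted p = 0.023) and by 0.45 ± 0.10 in PGC-1a4 (adjusted p = 0.011). The PGC-1a1 call did not hold without GFP replicate 2 (adjusted p = 0.071), GFP replicate 3 (0.077), PGC-1a1 replicate 1 (0.081) or PGC-1a1 replicate 3 (0.077), and the PGC-1a4 call without PGC-1a4 replicate 3 (0.051).

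Col25a1 encodes a transmembrane collagen that developing mouse muscle fibres need for innervation by motor neurons. It had 5.92, 5.95 and 5.98 log2 in PGC-1a2, against 5.25, 5.85 and 5.10 in GFP. The 3 PGC-1a2 arrays lay above the GFP arrays, and the difference of 0.55 did not pass with all arrays. Without GFP replicate 2 it was 0.77 and passed (adjusted p = 0.033). Among the 35 genes called in no comparison between groups, the largest difference from GFP was 0.61 log2, of Col10a1 in PGC-1a4, a collagen known from growth plate cartilage. It had 4.44, 4.90 and 4.85 log2 in PGC-1a4, against 3.51, 4.71 and 4.13 in GFP, and the groups overlapped. Of these 35 genes, 30 had their highest value of all 15 arrays on GFP replicate 2, and the value there was a median of 0.51 log2 above the mean of the other GFP arrays. The corresponding median was -0.04 for the 23 genes called in at least 1 comparison. The part of that array in the results was not tested beyond the counts without it.

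The isoforms were then compared with each other. In PGC-1a3 against PGC-1a4, 20 of the 58 genes passed (34.5%), 18 lower and 2 higher, against 23.0% of all rows, of which 9.79% were called lower and 13.2% higher. In PGC-1a2 against PGC-1a4, 15 passed (25.9%), 12 lower and 3 higher, against 25.2% of all rows, 12.6% lower and 12.6% higher. In PGC-1a1 against PGC-1a2, 14 passed, 9 higher and 5 lower, against 19.2% of all rows, 10.2% higher and 9.0% lower, and median centring gave 10 higher and 2 lower. In PGC-1a1 against PGC-1a3, 14 passed, 11 higher and 3 lower, against 14.0% of all rows, 6.48% higher and 7.56% lower. In PGC-1a1 against PGC-1a4, 7 passed, all lower in PGC-1a1, against 9.08% of all rows, 3.79% lower and 5.29% higher. In PGC-1a2 against PGC-1a3, 7 passed, 5 higher and 2 lower, against 9.27% of all rows, 3.76% higher and 5.52% lower. With median centring that last split was 2 and 2. The PGC-1a1 against PGC-1a4 count was 4 without PGC-1a1 replicate 1 or PGC-1a4 replicate 3. Over all rows these runs gave 1355 and 1217 calls, against 2119 in the main fit. The PGC-1a2 against PGC-1a3 count was 3 without PGC-1a2 replicate 1 or 2 or PGC-1a3 replicate 1, and 4 without PGC-1a3 replicate 2. Over all rows these runs gave 1405, 1219, 1133 and 1105 calls, in that order, against 2164 in the main fit. Higher and lower calls of the 58 genes were 1 and 2 without PGC-1a2 replicate 1 or 2, 2 and 1 without PGC-1a3 replicate 1, 2 and 2 without PGC-1a3 replicate 2, and 2 and 3 without PGC-1a3 replicate 3. Without GFP replicate 2, whose group enters these comparisons through the variance alone, the 6 counts in the order given were 21, 15, 16, 15, 9 and 10. Over all rows they were 5886, 6332, 4949, 3757, 2577 and 2598, against 5365, 5878, 4488, 3277, 2119 and 2164 with all arrays. In all 77 calls of the 58 genes between isoforms with all arrays, the groups did not overlap. In the same order of comparisons, 25, 22, 24, 17, 17 and 17 of the 58 genes did not overlap, with or without a call. The share over all rows is not given for these comparisons either, so the lack of overlap is not read as support.

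PGC-1a2 and PGC-1a4 differed most in Postn, by -1.91 log2 (PGC-1a2 at 26.6% of PGC-1a4, adjusted p = 4.5e-07), in Col6a1 by -1.36 (adjusted p = 2.7e-07) and in Fn1 by -1.16 (adjusted p = 5.8e-06). The values printed above show the PGC-1a2 arrays of these 3 genes below every PGC-1a4 array. Fbn2 was higher by 0.67 (adjusted p = 9.6e-05) and Nid2 by 0.61 (adjusted p = 2.4e-05) in PGC-1a2. PGC-1a3 and PGC-1a4 differed most in Tnc, by -1.31 (adjusted p = 3.9e-05), and also in Col6a1 by -1.10 (adjusted p = 2e-06), Thbs1 by -0.96 (adjusted p = 4.6e-06) and Col4a1 by -0.83 (adjusted p = 1.9e-06).

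PGC-1a1 exceeded PGC-1a2 in Postn by 2.11 log2 (adjusted p = 5.8e-07), which is 4.33-fold, and in Fn1 by 0.86 (adjusted p = 0.00011), and it was lower in Nid2 by -0.84 (adjusted p = 4.6e-06). PGC-1a1 exceeded PGC-1a3 in Postn by 0.92 (adjusted p = 0.00039) and in Tnc by 0.82 (adjusted p = 0.0027). PGC-1a1 was below PGC-1a4 in Col6a1 by -0.60 (adjusted p = 0.00089) and in Thbs1 by -0.52 (adjusted p = 0.002). PGC-1a2 and PGC-1a3 differed from each other in Postn by -1.19 (adjusted p = 0.00027), with the lower level in PGC-1a2. Each difference in this paragraph was kept whichever array was left out.

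Col4a2 passed in PGC-1a2 against PGC-1a4, by -0.45 log2 (adjusted p = 0.031), and in PGC-1a3 against PGC-1a4, by -0.53 (adjusted p = 0.015), with the lower level in the first group both times, as for Col4a1. These calls rest on single arrays. The first was lost without PGC-1a2 replicate 1 (adjusted p = 0.098), PGC-1a2 replicate 2 (0.098), PGC-1a4 replicate 2 (0.095) or PGC-1a4 replicate 3 (0.098), and the second without PGC-1a3 replicate 1 (0.071), PGC-1a4 replicate 2 (0.054) or PGC-1a4 replicate 3 (0.057). Col25a1 was higher in PGC-1a2 than in PGC-1a4 by 0.63 (adjusted p = 0.049). Leaving out any 1 of 10 arrays ended that call (adjusted p 0.056 to 0.15), namely GFP replicate 1, PGC-1a1 replicates 2 and 3, PGC-1a3 replicate 2 and every PGC-1a2 and PGC-1a4 replicate. Col26a1, which encodes collagen XXVI, was lower in PGC-1a1 than in PGC-1a3 by -0.41 (adjusted p = 0.015), which did not hold without PGC-1a1 replicate 3 (0.056) or PGC-1a3 replicate 3 (0.059).

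**Figure D3:**
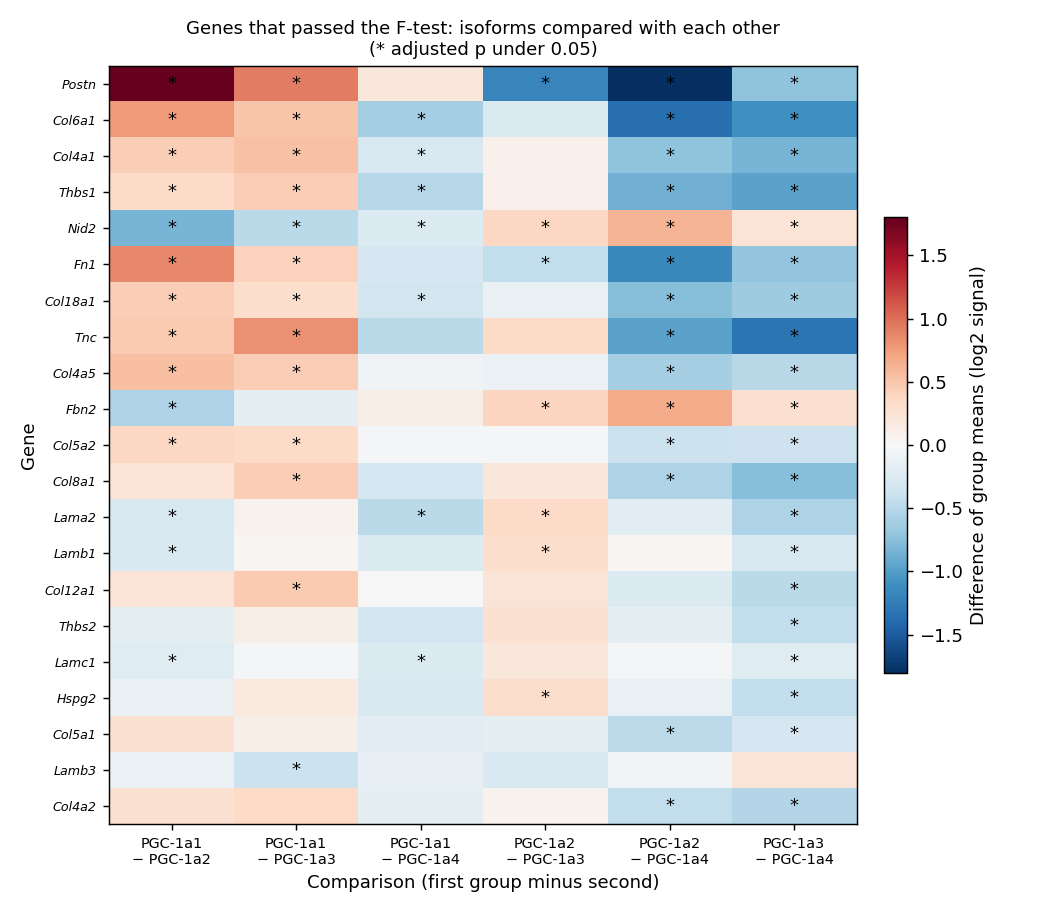
The heatmap shows the 6 comparisons between isoforms (columns, log2 signal of the first isoform minus the second) for the 21 genes that passed the F-test over the 5 groups (rows, smallest p at the top), with red where the first isoform is higher and a star where the adjusted p was under 0.05. The comparisons of PGC-1a2 and PGC-1a3 with PGC-1a4, at the right, are mostly blue, with Nid2 and Fbn2 among the exceptions.

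Genes that make, remodel, bind or regulate this matrix were read from lists chosen by function, with earlier results of these data known. The shares of these lists are therefore a description and not an independent test. Of 21 measured genes of collagen synthesis and crosslinking, 1 rose and 3 fell in PGC-1a1, 0 and 1 in PGC-1a2, 2 and 3 in PGC-1a3 and 4 and 1 in PGC-1a4. The shares called were 19.0% in PGC-1a1, 4.76% in PGC-1a2, 23.8% in PGC-1a3 and 23.8% in PGC-1a4, against 6.84%, 9.33%, 7.99% and 14.3% of all rows for the same comparisons. P4ha1, a collagen prolyl hydroxylase subunit, had 9.79, 9.90 and 9.80 log2 in PGC-1a2, against 10.16, 10.18 and 10.12 in GFP, with no overlap, and fell by 0.32 ± 0.05 (adjusted p = 0.0026). In PGC-1a4 P4ha1 had 10.34, 10.32 and 10.40 log2, above all GFP arrays, and rose by 0.20 ± 0.05 (adjusted p = 0.021), which did not hold without GFP replicate 3 (0.077) or PGC-1a4 replicate 3 (0.083). It also fell by 0.24 ± 0.05 in PGC-1a1 (adjusted p = 0.015), which did not hold without PGC-1a1 replicate 3 (0.067) or with median centring (0.16). P4ha2, a second subunit of that kind, fell by 0.54 ± 0.11 in PGC-1a4 (adjusted p = 0.0053). Of 33 matrix proteases and inhibitors, 2 rose and 0 fell in PGC-1a1, 3 and 2 in PGC-1a2, 3 and 3 in PGC-1a3 and 3 and 8 in PGC-1a4. The shares were 6.06%, 15.2%, 18.2% and 33.3% for PGC-1a1 to PGC-1a4, against the same shares of all rows, so that of PGC-1a1 was near that of all rows.

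Timp2, an inhibitor of matrix metalloproteinases, had 11.61, 11.51 and 11.65 log2 in PGC-1a4, against 11.02, 10.94 and 10.98 in GFP, and rose by 0.61 ± 0.05 (adjusted p = 1.7e-05). Adamts1, a protease of versican and aggrecan, fell by 0.68 ± 0.08 in PGC-1a4 (adjusted p = 1e-04). Mmp10, which encodes stromelysin-2, had 6.31, 6.74 and 6.59 log2 in PGC-1a2 and 4.42, 4.65 and 4.66 in PGC-1a4, against 5.61, 5.29 and 5.47 in GFP. It rose by 1.09 ± 0.15 in PGC-1a2 (adjusted p = 0.00093) and fell by 0.88 ± 0.15 in PGC-1a4 (adjusted p = 0.0016). Mmp12, known as the macrophage elastase, had 4.98, 5.24 and 5.32 log2 in PGC-1a1 and 3.40, 3.52 and 3.64 in PGC-1a4, against 4.26, 4.08 and 4.28 in GFP. It rose by 0.97 ± 0.12 in PGC-1a1 (adjusted p = 0.00036) and fell by 0.69 ± 0.12 in PGC-1a4 (adjusted p = 0.0019).

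Of 24 integrins and other matrix receptors, 1 rose and 1 fell in PGC-1a1, 1 and 3 in PGC-1a2, 0 and 3 in PGC-1a3 and 6 and 3 in PGC-1a4. The shares were 8.33%, 16.7%, 12.5% and 37.5%, against 6.84%, 9.33%, 7.99% and 14.3% of all rows. In PGC-1a4 the integrin chain genes Itgav (0.47 ± 0.07, adjusted p = 0.0011) and Itgb6 (0.55 ± 0.09, adjusted p = 0.0011) and the syndecan gene Sdc2 (0.49 ± 0.07, adjusted p = 0.00055) rose. Itgav encodes the alpha chain of receptors for fibronectin, periostin and latent TGF-beta. Ddr2, a receptor for fibrillar collagen, fell by 0.78 ± 0.09 in PGC-1a4 (adjusted p = 0.00011) and by 0.45 ± 0.09 in PGC-1a1 (adjusted p = 0.0093).

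Of 23 genes of TGF-beta signalling, the pathway known for inducing many matrix genes, 1 rose and 0 fell in PGC-1a1, 3 and 3 in PGC-1a2, 0 and 2 in PGC-1a3 and 2 and 0 in PGC-1a4. The shares were 4.35%, 26.1%, 8.7% and 8.7%, against 6.84%, 9.33%, 7.99% and 14.3% of all rows. Smad7, the inhibitory member of the SMAD family, had 7.75, 7.94 and 7.91 log2 in PGC-1a2, against 7.03, 7.10 and 7.17 in GFP, with no overlap, and rose by 0.77 ± 0.07 (adjusted p = 8.3e-05). The ligand gene Tgfb2 rose by 0.54 ± 0.09 in PGC-1a2 (adjusted p = 0.003). Ltbp1, which encodes a protein that holds latent TGF-beta in the matrix, fell by 0.30 ± 0.06 in PGC-1a2 (adjusted p = 0.0079, 0.075 with median centring) and by 0.48 ± 0.06 in PGC-1a3 (adjusted p = 0.00096). Smad3, a signal transducer of the pathway, rose by 0.39 ± 0.07 in PGC-1a4 (adjusted p = 0.0019).

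Of 36 proteoglycans and elastic fibre proteins, 0 rose and 2 fell in PGC-1a1, 3 and 2 in PGC-1a2, 1 and 2 in PGC-1a3 and 2 and 2 in PGC-1a4. The shares were 5.56%, 13.9%, 8.33% and 11.1%, near or below the 6.84%, 7.99% and 14.3% of all rows except in PGC-1a2, where 9.33% of all rows passed. Fbln2 encodes fibulin-2, which binds fibronectin, nidogens and fibrillins. It had 6.99, 6.97 and 7.04 log2 in PGC-1a1, 6.09, 6.10 and 6.31 in PGC-1a2, 6.51, 6.45 and 6.56 in PGC-1a3 and 7.51, 7.41 and 7.67 in PGC-1a4, against 6.97, 6.97 and 6.92 in GFP. The PGC-1a2 and PGC-1a3 arrays were below, and the PGC-1a4 arrays above, every GFP array. Fbln2 fell by 0.79 ± 0.08 in PGC-1a2 (adjusted p = 0.00014) and by 0.45 ± 0.08 in PGC-1a3 (adjusted p = 0.0056), and rose by 0.58 ± 0.08 in PGC-1a4 (adjusted p = 4e-04). Fbln5, an elastic fibre protein, fell by 0.60 ± 0.12 in PGC-1a2 (adjusted p = 0.0079), while Mfap4, a microfibril-associated protein, rose by 0.66 ± 0.13 there (adjusted p = 0.0067). Apart from Ltbp1 in PGC-1a2 with median centring and P4ha1 in PGC-1a1 and PGC-1a4, the calls named for these 5 lists were kept whichever array was left out and with quantile normalization, median centring and the other settings that used all groups. Fits of only the 2 groups compared ended those of P4ha1 in PGC-1a1 (adjusted p = 0.18), PGC-1a2 (0.11) and PGC-1a4 (0.22), P4ha2 (0.063), Tgfb2 (0.068), Ltbp1 in PGC-1a2 (0.15) and PGC-1a3 (0.099), Smad3 (0.083), Itgav (0.066), Fbln2 in PGC-1a3 (0.099), Fbln5 (0.057) and Mfap4 (0.089). Calls of the same genes that were left unnamed above were less stable. Mmp12 in PGC-1a3 (-0.52), Itgb6 in PGC-1a2 (-0.32) and Sdc2 in PGC-1a1 (0.3) and PGC-1a3 (-0.27) each ended on leaving out some single arrays. So did some calls of Loxl1, P3h2, Crtap, Sdc3, Mmp16, Mfap5, Ecm2 and Ltbp3, also among the 5 genes of their lists with the smallest F-test p.

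**Figure D4:**
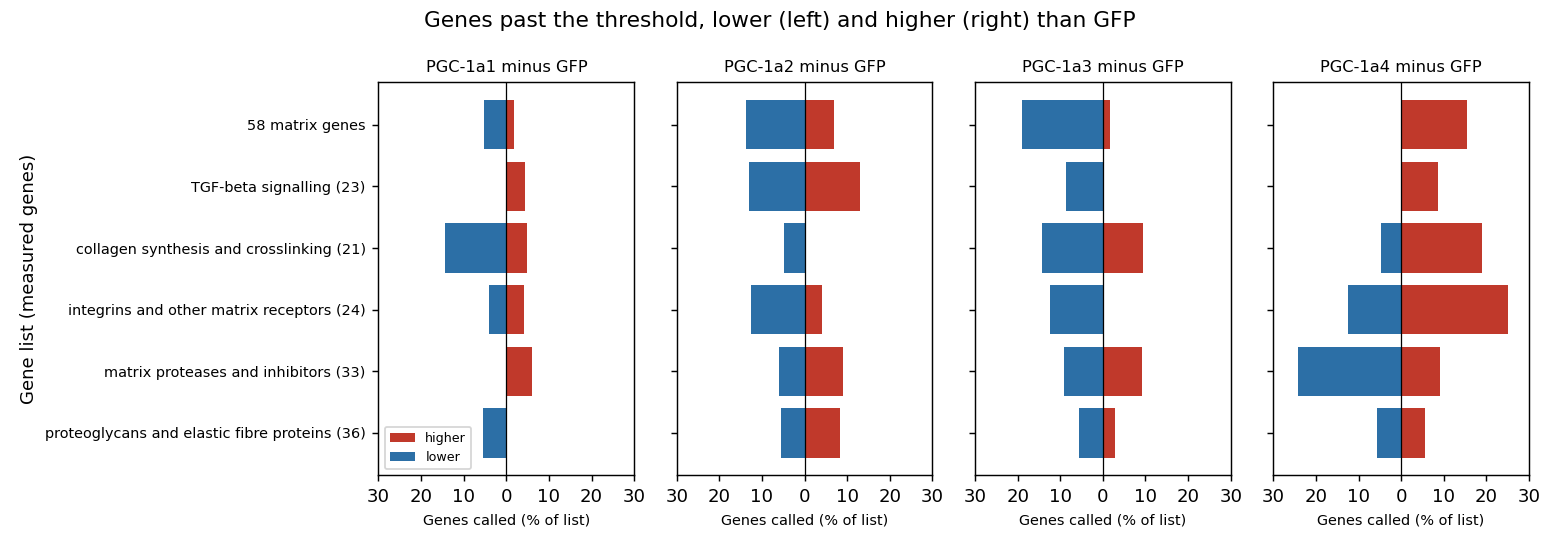
Bars show the percent of each gene list that passed the test, lower to the left and higher to the right of 0, for each isoform against GFP, with the number of measured genes in brackets. In PGC-1a4 the 58 matrix genes had calls on the higher side alone, the receptors 6 higher and 3 lower, and the proteases and inhibitors 3 higher and 8 lower.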

How the data were processed

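Gene expression of mouse myotubes was measured on exon arrays, 15 arrays in 5 groups of 3, grouped by title. The authors deposited log2 signals, 1 per row and array, in a table of 23332 rows. Partek is named without a version, per the submitters' processing notes. Details of background correction, normalization and genome build were not given in the sources used here. No gene positions from the array are therefore reported. The values were used as deposited, with no filter. Of the rows, 14996 carried exactly 1 gene symbol of the platform annotation, 1019 several and 7317 none, and all were tested. Array medians differed by less than 0.2 log2 and the number of arrays limits the precision.

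A single linear model of the 15 arrays was fitted by lmFit and eBayes (limma 3.58.1, R 4.3.3), with 10 residual and 2.09 prior degrees of freedom, 4 contrasts against GFP, 6 between isoforms and an F-test over the groups. The Benjamini-Hochberg adjustment of the two-sided p-values ran over all rows, separately for each contrast. Same-numbered arrays were not treated as pairs: 11 of 30 such pairs had deviations correlated above 0.1, with r from -0.22 to 0.36. Any of the 58 genes may be named, with array values for those called against GFP and for fibrillar collagens, and from each related list up to 5 genes with the smallest F-test p. Genes outside these that are named are Ppargc1a and cell type markers. The genes and lists were chosen with earlier results of these data known. Alternatives were quantile normalization, median centring, a filter at percentile 25 (3.93 log2) on at least 3 arrays, array weights, fits of only the 2 groups compared, averaging of a gene's rows, a robust fit with a variance trend, a block for the replicate number, and omission of each array in turn. Promoter windows of 300 bases come from RefSeq (GRCm38.p6).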

Additional observations from a re-analysis of the deposited data

How the results depend on the processing

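None of the 58 genes' 37 calls against GFP and 77 between isoforms changed sign under any alternative run. Of 37 calls against GFP, 20 were kept whichever array was left out, and of 77 between isoforms, 54. Fitting only the 2 groups compared leaves few residual degrees of freedom, and the prior degrees of freedom are estimated anew in each comparison. It gave 0, 3, 1 and 3 calls for PGC-1a1 to PGC-1a4 against GFP. Those kept were Postn, Fn1 and Col6a1 in PGC-1a2, Tnc in PGC-1a3, and Thbs1, Thbs2 and Col6a1 in PGC-1a4. Over all rows these fits gave 393, 173, 36 and 1014 calls, against 1596, 2177, 1865 and 3331 in the main fit. Between isoforms this fit gave 2 of the 58 genes for PGC-1a1 against PGC-1a4, 1 for PGC-1a2 against PGC-1a3, and 11 to 16 for the others. Over all rows it gave 693 calls for PGC-1a2 against PGC-1a3, where the main fit gave 2164. For PGC-1a2 against PGC-1a4 it gave 5204, where the main fit gave 5878. Median centring gave 7 of the 58 genes for PGC-1a3 against GFP and 4 for PGC-1a2 against PGC-1a3, where array weights gave 13. Over all rows these runs gave 1127, 1215 and 4009 calls. The main fit gave 1865 for PGC-1a3 against GFP and 2164 for PGC-1a2 against PGC-1a3. For PGC-1a1 against PGC-1a4, the filter and the variance trend gave 11 of the 58 genes each and array weights 12. Over all rows tested these gave 2529, 2634 and 3358, against 2119 in the main fit. Leaving out 1 array gave 1 to 4 calls for PGC-1a1, 9 to 12 for PGC-1a2, 5 to 12 for PGC-1a3 and 6 to 9 for PGC-1a4 against GFP. Between isoforms the ranges were 10 to 16 (PGC-1a1 against PGC-1a2), 11 to 15 (PGC-1a1, PGC-1a3), 4 to 10 (PGC-1a1, PGC-1a4), 3 to 10 (PGC-1a2, PGC-1a3), 13 to 16 (PGC-1a2, PGC-1a4) and 15 to 21 (PGC-1a3, PGC-1a4), and 19 to 22 for the F-test. The replicate block gave 4, 12, 12 and 8 calls against GFP, and ended that of Col5a2 in PGC-1a4 (adjusted p = 0.069). These counts cannot show whether arrays of the same number were prepared together. The cause of these changes was not tested. With 3 arrays per group, small differences cannot be shown, and a gene without a call is not shown to be unchanged.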
